A study of Mus musculus with 80 samples.

Results

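The RNA pulled down on tagged ribosomes was compared with the RNA of the same lysate in microglia that had been sorted on a FACSAria cell sorter. TRAP, translating ribosome affinity purification, captures the RNA held by ribosomes that carry a tag, and Input is the RNA of the lysate before the capture. The comparison took both fractions of 4 mice, numbered 69, 945, 991 and 992, which is 8 of the 80 libraries of the series, and every gene that was counted well enough, which is 11762 of the 15919 genes in the deposited table. All 4 mice carried the genotype Cx3cr1(Jung)-cre/Ert2+;NuTRAP+, in which 1 Cx3cr1 allele holds the tamoxifen-dependent Cre, and all had received tamoxifen at 100 mg/kg at about 3 months of age. NuTRAP is a Cre-dependent allele that marks the ribosomes of the recombined cells with eGFP-L10a and their nuclei with biotin and mCherry. Mice 945 and 991 were males and mice 69 and 992 females. One hemisphere of each brain was dissociated with papain and by mechanical force without transcription or translation inhibitors, and cells positive for CD11b, CD45 and eGFP were collected. The cells were lysed in a detergent buffer with cycloheximide and spun, and the supernatant was divided between the saved Input and the pull-down with an antibody to GFP. Cx3cr1 also drives Cre in other brain macrophages, so the gate takes in any of these cells that carry the tag. The comparison asks which transcripts are held by the tagged ribosomes out of proportion to their share of the RNA in that supernatant, once most other cells have been removed. RNA left in the pellet of the spun lysate was not measured.

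Microglia are the resident macrophages of the brain, known for the receptors P2RY12 and CSF1R and for a strong response to being taken out of the tissue. An mRNA under translation is held by ribosomes, whereas a noncoding RNA that stays in the nucleus is not, and an mRNA that is stored or being degraded is held less. The mRNAs for the ribosomal proteins are a textbook case of control at this step. They begin with a run of pyrimidines at the cap and move off the ribosomes when growth signals fall.

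The 4 Input libraries held 8738297 to 11367400 expected counts and the 4 TRAP libraries 13528743 to 16710026, so Input was the shallower fraction in every pair. Values are given as CPM, the counts scaled to a common library size by TMM, in the order of mice 69, 945, 991 and 992. They are not corrected for gene length, so levels are compared between fractions and not between genes. A fold change is TRAP over Input on the log2 scale from a paired model with the mouse as a block, and a gene was called at an adjusted p under 0.1 with a fold change above 2. The microglial label held in all 8 libraries: Csf1r lay at 9650.0 to 13464 CPM and P2ry12 at 2916 to 3568 CPM. Of the marker lists for blood cells, 2 of 16 lymphocyte genes and 2 of 13 neutrophil and monocyte genes were counted well enough to be tested. Of 7 red cell genes 4 were tested, and the list summed to 26.7 to 118 CPM in Input and 11.4 to 21.3 CPM in TRAP. Mouse 991 stood apart in Input, where transcripts of other brain cells were highest. In the listing of the study, the read numbers after trimming of its Input and TRAP libraries are in the reverse order of the deposited totals, and that of Input exceeds the number before trimming. The labels were kept as given. Neat1, Malat1 and the ribosomal protein list had the same direction in this mouse as in the other 3. In bulk samples, fewer cells of a type and less RNA per cell cannot be told apart.

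The fractions of the sorted microglia were close. Of the 11762 genes, 93.1% differed by less than 2-fold, and the median log2 fold change was -0.01. At the threshold of 2-fold, 765 genes were lower in TRAP (6.5% of those tested) and 12 were higher (0.102%). The small spread between the pairs let many smaller differences pass: at an adjusted p under 0.1 alone, 2927 genes were lower (24.9%) and 2818 higher (24.0%). The one-sidedness lay in the larger differences, with a 5th percentile of log2 fold change at -1.22 and a 95th at 0.42. The 4 Input and 4 TRAP values did not overlap for 1853 genes that were lower (15.8%) and 1671 that were higher (14.2%). Of the 765 lower genes, 664 were lower in all 4 mice, and together they made up 18471 to 22312 CPM in Input against 7368 to 9676 CPM in TRAP. Among the 8492 genes with a mean of at least 10 CPM, 173 were lower and 3 higher. Of the 765, 339 had passed the filter on low counts through Input alone, so that a lower value in TRAP was built into their selection. Among the 11026 genes that passed in both fractions, 418 were lower (3.79%).

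**Figure D1:**
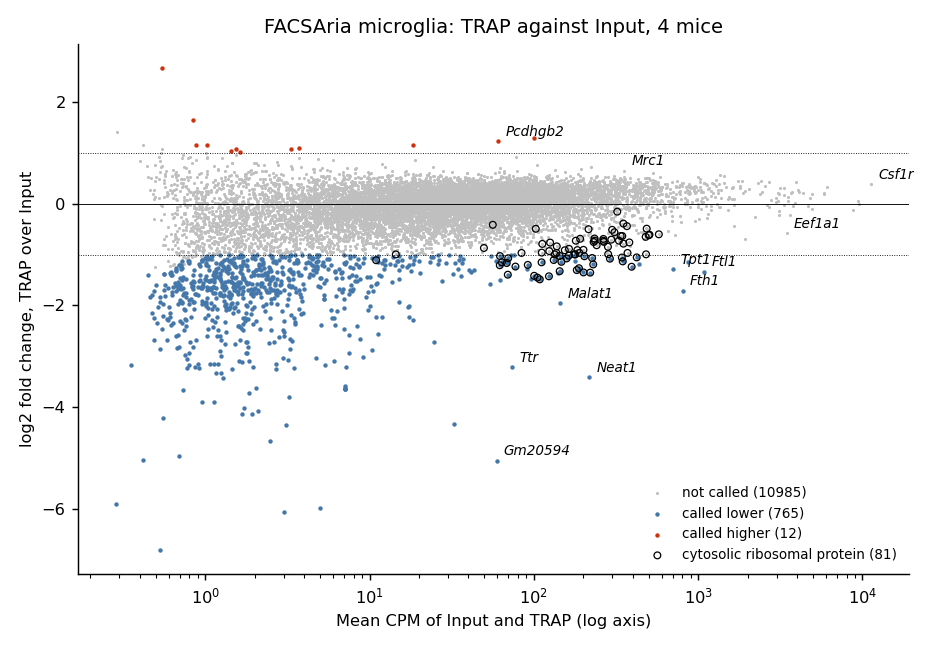
Log2 fold change of TRAP over Input for the 11762 genes tested (y axis) against the mean CPM of both fractions (x axis, log scale), from the paired model over 4 mice. Blue points are the 765 genes called lower, red points the 12 called higher, grey points the others, black rings the 81 cytosolic ribosomal protein genes, and dotted lines mark 2-fold. The rings lie below 0 as a band, while the abundant microglial gene Csf1r lies near it.

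The mRNAs for the proteins of the cytosolic ribosome were the largest block of abundant transcripts that was lower in TRAP. All 81 tested members were lower in each of the 4 mice at an adjusted p under 0.1, 33 of them by more than 2-fold (40.7%, against 6.5% of all genes). Of all genes, 15.8% were lower with no overlap between fractions, and of these 81 members 80 were. Their median log2 fold change was -0.97, with a range from -1.49 (Rps21) to -0.16 (Rpl10a), against -0.01 over all genes. The list crosses the 2-fold line rather than splitting at it, since 5 called members lay within 0.05 of the threshold and 10 members within 0.05 of it on the other side were not called. Summed over the list, Input held 21678 to 23968 CPM and TRAP 11806 to 13963 CPM. The small subunit (14 of 32 called, median -0.98) and the large subunit (19 of 49, median -0.97) gave like values. The median over the list was -1.06 in mouse 69, -0.93 in mouse 945, -1.02 in mouse 991 and -0.69 in mouse 992, so the direction was shared and mouse 992 showed the smallest difference.

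Rps21, a protein of the small subunit, was at 161, 167, 169 and 143 CPM in Input and 50.2, 53.6, 60.2 and 65.1 CPM in TRAP (log2 fold change -1.49, SE 0.08, edgeR adjusted p = 3.16e-13). Rps20 was at 163, 156, 163 and 134 CPM in Input and 48.9, 58.6, 55 and 62.8 CPM in TRAP (log2 fold change -1.45, SE 0.08, edgeR adjusted p = 7.74e-13). Rpl32, of the large subunit, was at 183, 186, 187 and 163 CPM in Input and 57.5, 69.7, 68.5 and 72.6 CPM in TRAP (log2 fold change -1.43, SE 0.07, edgeR adjusted p = 1.98e-13). For these 3 genes every TRAP value was below every Input value, with mouse 992 lowest in Input and highest in TRAP. Rpl35 fell likewise, from 151, 151, 149 and 132 CPM in Input to 51.8, 48.2, 55.2 and 64.4 CPM in TRAP (log2 fold change -1.42, SE 0.08, edgeR adjusted p = 1.14e-12). Rplp0, the acidic stalk protein often used as a reference gene in quantitative PCR, was at 556, 526, 590.4 and 536 CPM in Input and 236, 217, 208 and 279 CPM in TRAP (log2 fold change -1.24, SE 0.06, edgeR adjusted p = 2.61e-13). Each of the 4 mice thus had less Rplp0 in TRAP than any mouse had in Input. Rpl10a, the gene whose protein carries the tag in the NuTRAP allele, was the member that differed least, at 347, 337, 328 and 344 CPM in Input and 302, 304, 278 and 334 CPM in TRAP (log2 fold change -0.16, SE 0.05, edgeR adjusted p = 0.0117), and its groups overlapped. Reads of the transgene and of the endogenous gene were not separated. Many ribosomal protein genes have processed pseudogenes with near-identical sequence, so the level of a single member is less certain than the shift of the list.

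The start sites of the 5 called ribosomal protein genes with the lowest fold changes and a single start site in the RefSeq promoter table (GRCm38.p6) are shown, since the pyrimidine run at the start of these mRNAs is what the group is known for. Each line gives 30 bases on the strand of the gene, 15 before the annotated start and 15 after it. Capitals mark the motifs CTTTC and CTTTTC on that strand, and the other strand was searched only for the shares below.
Rpl35, chr2:39005117-39005146, minus strand: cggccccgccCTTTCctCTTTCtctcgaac
Rpl39, chrX:37085208-37085237, minus strand: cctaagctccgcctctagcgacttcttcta
Rps12, chr10:23787195-23787224, minus strand: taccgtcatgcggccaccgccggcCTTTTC
Rpl12, chr2:32961697-32961726, plus strand: ggcggagcaggatccgtCTTTTCggCTTTC
Rpl26, chr11:68901551-68901580, plus strand: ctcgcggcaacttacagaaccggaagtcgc
Of these windows, those of Rpl35, Rps12 and Rpl12 hold a match, and those of Rpl39 and Rpl26 hold none. A match on the strand of the gene was found in 4.99% of all 32851 start sites in the table and on the other strand in 4.44%. Only 60 of the 81 ribosomal protein genes (74.1%) had a start site there, so a share over the group is void and is not given. A match in these letters is a description of the window and not evidence of a site.

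Other genes of the translation machinery moved less. Of 51 translation factors, 2 were called lower (6.5% of all genes were) and the median was -0.05. At the adjusted p, 13 passed higher and 18 lower (24.0% and 24.9% of all genes). Tpt1, which encodes the translationally controlled tumour protein and whose mRNA also starts with a pyrimidine run, was at 994, 928, 1029 and 1017 CPM in Input and 387, 385, 370.4 and 491 CPM in TRAP (log2 fold change -1.29, SE 0.05, edgeR adjusted p = 1.19e-14). Eef1b2, a subunit of the elongation factor that recharges eEF1A, went from 227, 211, 243 and 214 CPM in Input to 102, 104, 114 and 127 CPM in TRAP (log2 fold change -1.01, SE 0.06, edgeR adjusted p = 8.11e-12) and sat at the fold threshold, which it missed without mouse 69 (-0.95) or 991 (-0.97) and by a small margin without mouse 945. Eef1a1, the elongation factor that brings aminoacyl-tRNA to the ribosome, was not called, at 4173, 3804, 4368 and 4252 CPM in Input and 2645, 2807, 2639 and 3000.5 CPM in TRAP (log2 fold change -0.58, SE 0.04, edgeR adjusted p = 5.39e-11). All 3 genes were lower in TRAP in every mouse, and their groups did not overlap. Of the 78 mitochondrial ribosomal protein genes, 2 were called lower (Mrps24, log2 fold change -1.07, and Mrpl30, -1.02) and the median was -0.11. Both sat at the threshold, and leaving out 1 mouse took Mrps24 to between -1.19 and -0.95 and Mrpl30 to between -1.15 and -0.96. Of the 77 nuclear genes of oxidative phosphorylation, Atp5e, a small subunit of the ATP synthase, was called lower (-1.11), and the median was -0.20. Genes encoded by the mitochondrial genome were not in the table.

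Transcript length moved with the fold change. Over the 11300 protein-coding genes with a coding transcript in GENCODE M21 (99.5% of those tested), the median was -0.39 for coding lengths up to 500 bases, -0.12 from 500 to 1000 bases, 0.12 from 2000 to 3000 bases and 0.10 above 3000 bases. The step at short lengths was there in each mouse. It was also there without the ribosomal protein, mitochondrial ribosomal protein and oxidative phosphorylation genes. There the 770 shortest coding sequences had a median of -0.37, and 10.6% were called lower (5.84% of all protein-coding genes were). By mRNA length, genes up to 1000 bases had a median of -0.34, and the bins above 2000 bases lay between 0.02 and 0.05. The mRNAs of ribosomal proteins are short, with a median of 855 bases against 2986.5 bases over all protein-coding genes, and their median of -0.97 lay below that of other short genes. Whether length accounts for a share of the ribosomal protein shift was not tested.

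**Figure D2:**
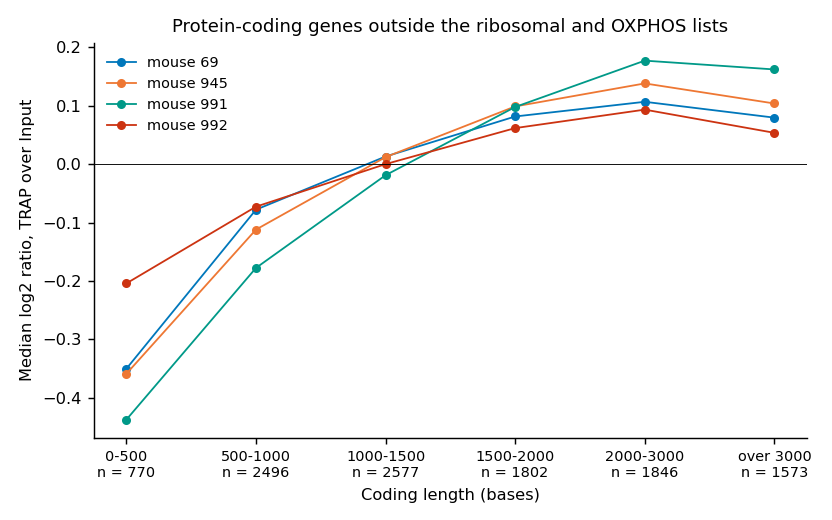
Median log2 ratio of TRAP over Input (y axis) in 6 bins of coding length in bases (x axis, with the number of genes), 1 line for each of the 4 mice, for protein-coding genes outside the ribosomal and oxidative phosphorylation lists. All 4 lines are below 0 in the 770 genes up to 500 bases and above 0 from 1500 bases on.

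RNAs that stay in the nucleus were lower in TRAP. All 8 tested of 14 listed nuclear long noncoding RNAs were lower at an adjusted p under 0.1 (24.9% of all genes were), 4 were called lower (6.5% of all genes were), and the median was -1.04. Neat1, the scaffold of nuclear paraspeckles, was at 443, 298, 360.0 and 478 CPM in Input and 32.3, 26.4, 33.8 and 59.6 CPM in TRAP (log2 fold change -3.41, SE 0.08, edgeR adjusted p = 8.22e-20), a 10.7-fold difference. Malat1, a nuclear speckle RNA, was at 187, 245, 272 and 212 CPM in Input and 48.3, 49.4, 57.2 and 84.8 CPM in TRAP (log2 fold change -1.96, SE 0.10, edgeR adjusted p = 3.41e-13), a 3.89-fold difference. The Input and TRAP values of both RNAs were far apart in all 4 mice, and mouse 992 kept the most of each in TRAP. Xist, which coats the inactive X chromosome, can be read in the females only, where it went from 171 and 192 CPM in Input to 53.9 and 73.1 CPM in TRAP (log2 fold change -1.50, SE 0.10, edgeR adjusted p = 6.2e-11). Of the 4 called RNAs, Xist alone had passed the filter on low counts through Input only. The fourth, Meg3, was low, at 2.56 to 7.44 CPM in Input and 1.77 to 2.63 CPM in TRAP (log2 fold change -1.12, SE 0.33, edgeR adjusted p = 0.00806), and was not called without mouse 991 (-0.91) or 992 (-0.83).

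Genes whose introns carry small nucleolar RNAs behaved alike. Of 14 tested, 8 were called lower (6.5% of all genes were), 12 passed the adjusted p in that direction (24.9% of all genes did), and the median was -1.15. Gas5, a noncoding host whose spliced RNA is degraded when it is translated, was at 44.9, 41.8, 47.2 and 57 CPM in Input and 15.5, 18.3, 24.1 and 33.2 CPM in TRAP (log2 fold change -1.11, SE 0.10, edgeR adjusted p = 6.54e-09), and it missed the fold threshold without mouse 69 (-0.97). Snhg8 was at 10.8, 10.7, 11.7 and 9.96 CPM in Input and 3.28, 2.88, 4.34 and 5.96 CPM in TRAP (log2 fold change -1.44, SE 0.21, edgeR adjusted p = 9.36e-06), and Snhg6 (-1.86), Snhg3 (-1.81) and Snhg11 (-1.49) were called at low levels. The TRAP values of Gas5 and Snhg8 lay below the Input values in every pair of mice. By the type given in the gene annotation, 90 of 332 noncoding genes (27.1%) and 11 of 73 pseudogenes (15.1%) were called lower, against 663 of 11355 protein-coding genes (5.84%). Gm20594, a predicted gene, had the lowest value of all genes with at least 10 CPM, at 117, 95.7, 126 and 122 CPM in Input and 3.47, 1.79, 3.60 and 5.28 CPM in TRAP (log2 fold change -5.05, SE 0.12, edgeR adjusted p = 7.07e-20). The mRNAs of proteins that work in the nucleus were not lower as lists: none of 12 SR splicing factors and 34 genes of RNA polymerase II and chromatin was called, with medians of -0.02 each, and none of 35 transcripts known for retained introns was called either (median -0.03).

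Several abundant mRNAs outside these groups were lower, and they were chosen for mention after their values were seen. Ferritin stores iron, and translation of both of its subunits is blocked when iron is scarce. The heavy chain Fth1 was at 1178, 1142, 1385 and 1221 CPM in Input and 378, 309, 321 and 525 CPM in TRAP (log2 fold change -1.71, SE 0.08, edgeR adjusted p = 1.44e-13). The light chain Ftl1 was at 1562, 1362, 1416 and 1801 CPM in Input and 639.6, 484, 439 and 971 CPM in TRAP (log2 fold change -1.34, SE 0.07, edgeR adjusted p = 8.27e-13). Both fell in every mouse, and mouse 992 had the highest TRAP value of each. Macf1, a large cross-linker of microtubules and actin, went from 1235, 1214, 1077 and 1265 CPM in Input to 522, 511, 491 and 665 CPM in TRAP (log2 fold change -1.14, SE 0.05, edgeR adjusted p = 2.01e-14), so a long mRNA was among them. Ccni, a cyclin, was at 582 to 615 CPM in Input and 227 to 317 CPM in TRAP (log2 fold change -1.18, SE 0.06, edgeR adjusted p = 4.39e-13). The zinc finger genes as a list did not share this, with 4 of 289 called lower (6.5% of all genes were) and a median of -0.06. However, Zfp329 (25.4 to 32.3 CPM in Input and 6.23 to 7.19 CPM in TRAP, log2 fold change -2.02) and Zfp488 (26.1 to 54.5 CPM in Input and 12.1 to 15.9 CPM in TRAP, -1.53) did not overlap between fractions. Of 18 tested histone genes, 2 were called lower (Hist4h4 and Hist1h4i), with a median of -0.28 over the list, and -0.10 without mouse 945. Hist4h4 had passed the filter through Input alone. Most histone mRNAs have no poly(A) tail, and the libraries were made from poly(A) RNA.

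**Figure D3:**
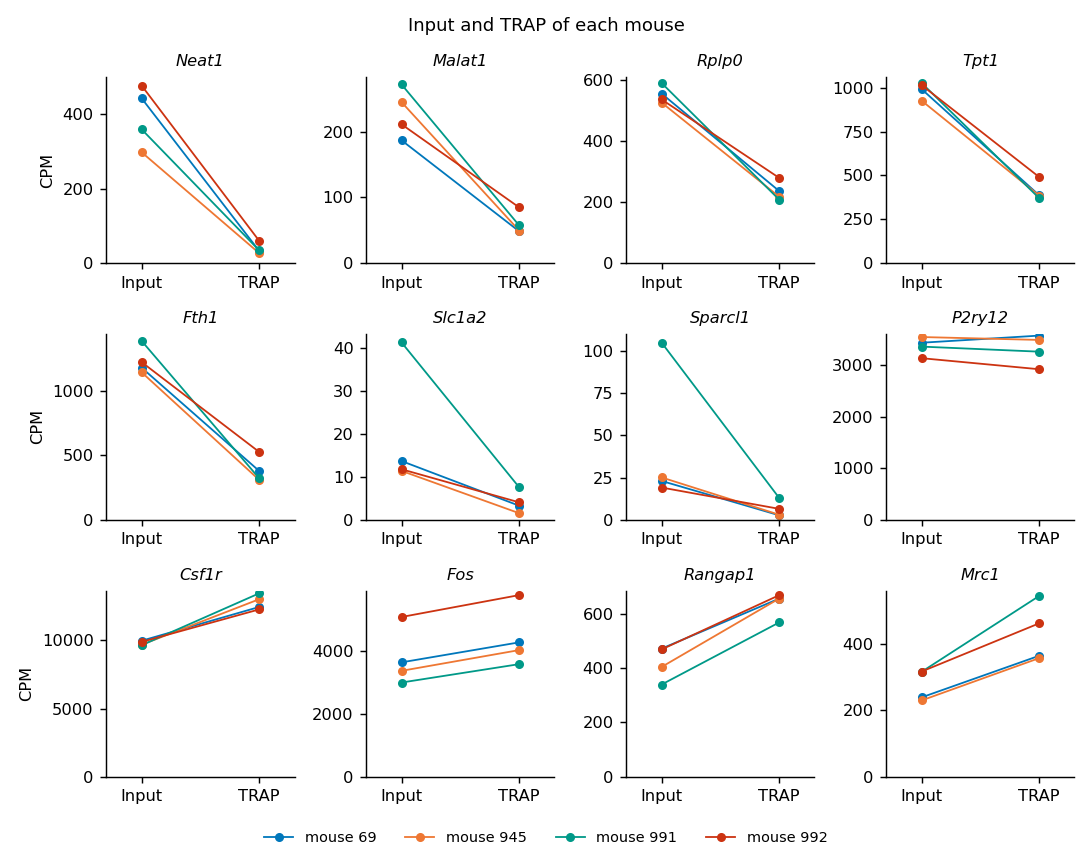
CPM in Input and TRAP (y axes, from 0) of 12 genes, with 1 line for each of the 4 mice. Neat1, Malat1, Rplp0, Tpt1, Fth1, Slc1a2 and Sparcl1 fall in every mouse, P2ry12 is near level, and Csf1r, Fos, Rangap1 and Mrc1 rise in every mouse by less than 2-fold.

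The genes that define microglia were nearly the same in both fractions. None of 32 homeostatic genes was called. Their median was 0.11, with 16 passing the adjusted p higher and 4 lower (24.0% and 24.9% of all genes). Csf1r, the receptor that microglia need to survive, was at 9979, 9687, 9650.0 and 9894 CPM in Input and 12462, 13031.7, 13464 and 12283 CPM in TRAP (log2 fold change 0.39, SE 0.03, edgeR adjusted p = 5.9e-10). Cx3cr1, the fractalkine receptor whose promoter drives the Cre, was at 3655, 3819.9, 3702 and 3447 CPM in Input and 4499, 4706, 4625 and 3856 CPM in TRAP (log2 fold change 0.27, SE 0.03, edgeR adjusted p = 1.02e-06). For both receptors each TRAP value was above each Input value, by a margin well under 2-fold. P2ry12, a purine receptor for damage signals, was at 3429.7, 3540.1, 3355 and 3130.3 CPM in Input and 3568, 3484, 3256 and 2916 CPM in TRAP (log2 fold change -0.03, SE 0.03, edgeR adjusted p = 0.553), and its groups overlapped. Tmem119 (0.05) missed the threshold too, and Tyrobp, a short adaptor of TREM2 signalling, was the homeostatic gene with the lowest value (log2 fold change -0.69, SE 0.05, edgeR adjusted p = 1.39e-10). Of the 282 microglial markers listed by the study, 2 were called lower, 164 passed the adjusted p higher and 37 lower, and the median was 0.18. That list may have been chosen on samples of this series, so it is not independent evidence.

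Lysosomal genes were mostly higher in TRAP without reaching 2-fold, and genes of the endoplasmic reticulum went both ways. Of 32 lysosomal genes, 24 passed the adjusted p higher and 1 lower (24.0% of all genes passed higher), with a median of 0.24 and none called. Of 35 chaperones and translocation genes of the endoplasmic reticulum, 14 passed higher and 11 lower (median 0.06): Calr, a calcium-binding chaperone, was at 1097, 1054, 1139 and 1070.3 CPM in Input and 1414, 1371, 1543 and 1343 CPM in TRAP (log2 fold change 0.38, SE 0.04, edgeR adjusted p = 4.57e-08), whereas the short translocon gene Sec61g was lower (log2 fold change -0.78, SE 0.17, edgeR adjusted p = 0.000604). Antigen presentation (19 genes, median 0.19), cholesterol synthesis (24 genes, 0.15) and the integrated stress response (29 genes, 0.24) held no called gene. The interferon list held 1 of 31, Ifi27l2a (-1.02; -0.88 without mouse 945 and -0.97 without mouse 992, not called), at a median of 0.12. Slc3a2, an amino acid transporter subunit of the stress response, was at 428, 467, 439 and 487 CPM in Input and 579, 616, 633 and 579 CPM in TRAP (log2 fold change 0.41, SE 0.05, edgeR adjusted p = 4.13e-07). Border macrophages, which also express Cx3cr1, were represented by 14 genes with a median of 0.50, of which 10 passed higher, 1 lower and none was called. Mrc1, the mannose receptor CD206, was at 239, 229.7, 316 and 317 CPM in Input and 365, 357, 545 and 462 CPM in TRAP (log2 fold change 0.65, SE 0.05, edgeR adjusted p = 3.83e-10). Stab1, a scavenger receptor, was at 1237, 1069.8, 1192 and 1203 CPM in Input and 1695, 1654, 1876 and 1608 CPM in TRAP (log2 fold change 0.54, SE 0.04, edgeR adjusted p = 5.9e-10). Both were higher in TRAP in every mouse, and the Input and TRAP groups of both did not overlap. Rangap1, whose mCherry fusion is the nuclear tag of the allele, was at 471, 403, 339 and 468 CPM in Input and 655, 655, 567 and 667 CPM in TRAP (log2 fold change 0.61, SE 0.05, edgeR adjusted p = 9.42e-10).

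The response to dissociation was present in both fractions at like levels. The immediate-early list, which holds genes switched on within minutes of a stimulus, summed to 37058 to 60117 CPM in Input and 35883 to 59778 CPM in TRAP. None of its 45 genes was called, 13 passed the adjusted p in each direction (24.0% of all genes passed higher and 24.9% lower), and the median was -0.03. Fos was at 3635, 3365, 2993 and 5078 CPM in Input and 4271, 4025, 3578 and 5774 CPM in TRAP (log2 fold change 0.23, SE 0.03, edgeR adjusted p = 3.36e-06). Egr1 was at 3724, 2688, 2370.1 and 4441 CPM in Input and 3249.7, 2136, 2033 and 4119 CPM in TRAP (log2 fold change -0.21, SE 0.04, edgeR adjusted p = 5.55e-05). Atf3 was at 1164, 1116, 750.1 and 1844 CPM in Input and 1025, 967, 600.3 and 1697 CPM in TRAP (log2 fold change -0.21, SE 0.04, edgeR adjusted p = 0.000287). For these 3 genes the spread between mice was wider than the difference between fractions, with mouse 992 highest in both, and the paired model removes that spread. Jun (-0.06) and Ddit3 (-0.04) missed the threshold, and Atf4 (-0.21) passed the adjusted p alone. Of 23 heat shock genes, Hspb8 was called lower at a low level, having passed the filter through Input alone, and the median was 0.08.

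Cytokine and chemokine mRNAs lay slightly to the Input side, with a median of -0.28 over 24 genes, 12 of them lower at an adjusted p under 0.1 and 1 higher (24.9% and 24.0% of all genes). The called member, Cxcl14, was at 2.73 to 6.87 CPM in Input and 1.22 to 4.58 CPM in TRAP (log2 fold change -1.10, SE 0.30, edgeR adjusted p = 0.00469), and was not called without mouse 992 (-0.89). Ccl3, a chemokine that rises when microglia are activated, was at 257, 271, 253 and 505 CPM in Input and 216, 208, 195 and 448 CPM in TRAP (log2 fold change -0.29, SE 0.05, edgeR adjusted p = 6.47e-05). Ccl4 was at 227, 217, 191 and 433 CPM in Input and 173, 171, 138 and 381 CPM in TRAP (log2 fold change -0.34, SE 0.05, edgeR adjusted p = 1.8e-05). Mouse 992 had the highest level of both chemokines in both fractions, and each mouse had less in TRAP than in Input. Il1b (86.8, 127, 86.5 and 146 CPM in Input and 88, 123, 80.8 and 146 CPM in TRAP, log2 fold change -0.03) and Tnf (-0.09) missed the threshold.

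**Figure D4:**
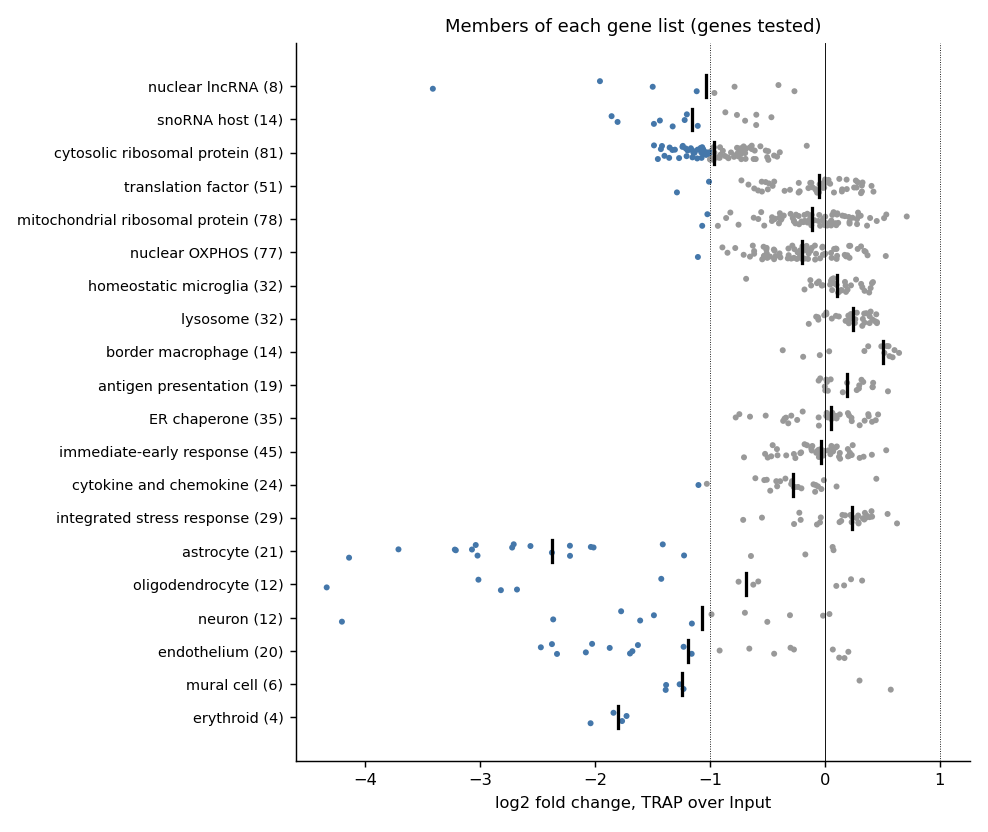
Log2 fold change of TRAP over Input (x axis) of the tested members of 20 gene lists (y axis, with the number of genes); each point is a gene, blue where it was called lower, the bars are medians and the dotted lines mark 2-fold. The ribosomal protein, nuclear RNA and snoRNA host lists lie around -1, the microglial and response lists around 0, and the lists of other cell types spread to the left.

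Transcripts of other brain cells were low in these sorted samples, and many of those tested were lower in TRAP, though not in every list and mouse. Summed over the oligodendrocyte genes that were over 4-fold higher in the unsorted cell suspension than in Tyto-sorted microglia, Input over TRAP was 0.968 in mouse 69, 0.952 in mouse 945, 2.48 in mouse 991 and 1.05 in mouse 992. The same ratio in mouse 992 was 0.873 for endothelium and 0.812 for mural cells, and in mouse 991 it was 0.981 for neurons. The oligodendrocyte genes summed include Enpp2, which is also on the ependyma and choroid plexus list. In the Input of mouse 991 Enpp2 was at 240 CPM, of 704 CPM in the sum. Enpp2 is counted below as a called member of both lists. Of 21 tested astrocyte genes, 17 were called lower with a median of -2.38, and 6 of these are among the 10 that passed the count filter in both fractions. For the 20 astrocyte genes that were over 4-fold higher in the suspension, Input summed to 347, 342, 668 and 353 CPM. TRAP summed to 267, 249, 282 and 265 CPM, so the sum differed by less than 2-fold except in mouse 991. The summed astrocyte level thus fell by less than the list median. Against 6.5% of all genes, called members were 11 of 20 for endothelium (median -1.20), 6 of 12 for neurons (-1.07), 5 of 12 for oligodendrocytes (-0.69), 4 of 6 for mural cells (-1.25), 3 of 4 for ependyma and choroid plexus (-2.12) and 4 of 4 for red cells (-1.80). Of the members that passed in both fractions, 5 of 14 endothelial, 2 of 7 neuronal and 3 of 10 oligodendrocyte genes were called, against 3.79% of all genes that did. With a filter of at least 10 counts in every sample, which drops the scarcest members, the list medians were -1.24 for astrocytes, -0.39 for endothelium, -0.32 for neurons and -0.25 for oligodendrocytes. The lists of the study gave 47 of 85 for astrocytes, 41 of 153 for endothelium, 21 of 95 for oligodendrocytes and 7 of 16 for neurons, with medians of -1.31, -0.22, -0.05 and -0.75. Of those that passed in both fractions, 15 of 47, 20 of 127, 7 of 78 and 2 of 10 were called. At the adjusted p alone, 31 of the 153 endothelial and 19 of the 95 oligodendrocyte genes of the study were higher in TRAP. Both are smaller shares than the 24.0% of all genes tested. Those lists may have been chosen on samples of this series. Slc1a2, the glutamate transporter of astrocytes, was at 13.7, 11.4, 41.4 and 11.8 CPM in Input and 3.28, 1.54, 7.58 and 4.07 CPM in TRAP (log2 fold change -2.22, SE 0.19, edgeR adjusted p = 1.32e-09). Sparcl1, an astrocyte matrix protein, was at 23, 25.1, 105 and 19.1 CPM in Input and 2.66, 3.01, 12.9 and 6.49 CPM in TRAP (log2 fold change -2.71, SE 0.17, edgeR adjusted p = 9.83e-12). Both were far higher in the Input of mouse 991 than in that of the other mice, and lower in TRAP in each mouse. Among called genes with at least 10 CPM in 1 fraction and the same direction in all 4 mice, the 15 lowest fold changes also held the astrocyte genes Aldoc (-2.38), Ntrk2 (-2.26) and Cpe (-2.56), the blood-brain barrier transporter Slco1a4 (-2.47), and Nnat (-2.41), Plekhb1 (-3.09) and 4930470H14Rik (-2.58). Aldoc had passed the count filter through Input alone, and the filter of at least 10 counts in every sample drops Aldoc, Ntrk2 and Plekhb1.

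Mbp, a main protein of myelin, was not called, at 75.4, 76.3, 202 and 80.9 CPM in Input and 55.4, 58.1, 58.3 and 65.6 CPM in TRAP (log2 fold change -0.75, SE 0.15, edgeR adjusted p = 0.000218). The Input of mouse 991 stood out, and the log2 fold change was -0.38 without that mouse. Snap25, a synaptic vesicle fusion protein of neurons, was at 2.45 to 4.11 CPM in Input and 0.128 to 2.08 CPM in TRAP (-2.37), and had passed the count filter through Input alone. Kif5a, a neuronal kinesin, was at 5.20 to 37.7 CPM in Input and 0.449 to 5.73 CPM in TRAP (-2.89). Cldn5, the tight junction protein of brain endothelium, was at 3.66, 16.2, 42.5 and 1.49 CPM in Input and 0.434, 2.56, 9.90 and 1.58 CPM in TRAP (log2 fold change -2.08, SE 0.28, edgeR adjusted p = 1.89e-06), with no drop in mouse 992, in which the endothelial list had a median of 0.03. Ttr, the thyroxine carrier of choroid plexus, was at 32.2, 9.37, 509.9 and 10.3 CPM in Input and 5.20, 4.81, 11.7 and 6.71 CPM in TRAP (log2 fold change -3.22, SE 0.46, edgeR adjusted p = 5.77e-06), and Enpp2, another choroid plexus transcript, at 1.92, 3.92, 239.8 and 6.18 CPM in Input and 0.991, 0.769, 6.90 and 0.603 CPM in TRAP (log2 fold change -4.34, SE 0.34, edgeR adjusted p = 5.32e-10). The Input of mouse 991 thus held most of the choroid plexus signal, and without it the log2 fold change was -1.45 for Ttr and -2.19 for Enpp2. Without mouse 991 the list medians were -2.35 for astrocytes, -1.04 for endothelium, -0.43 for oligodendrocytes, -1.45 for neurons, -0.65 for mural cells, -1.07 for ependyma and choroid plexus and -1.43 for red cells, with 13, 10, 5, 7, 3, 2 and 4 members called. Hba-a1, a chain of haemoglobin, was at 11.5, 29.3, 54.7 and 17.3 CPM in Input and 5.20, 4.23, 6.66 and 8.90 CPM in TRAP (log2 fold change -2.04, SE 0.23, edgeR adjusted p = 2.26e-07), and reads of the haemoglobin genes can be shared between near-identical copies.

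The called genes were also read against a measure of which transcripts come with other cells. Of the genes tested, 1107 (9.41%) were over 4-fold higher in the Input of the unsorted cell suspension than in that of microglia sorted on a Tyto, a microfluidic sorter, and 372 of these were called lower (33.6%, median -0.53). They made up 48.6% of the 765 called genes. Of the 765, 339 had passed the filter through Input alone, so that a lower value in TRAP was built into their selection. How many of the 372 did so was not counted, so these shares are not evidence about the class. Of the 7219 genes not higher in the suspension, 260 were called lower (3.60%), which is 34% of the 765, and 5 were called higher. All 17 called astrocyte genes are in the first class, as are 20 of the 21 tested. Of the 33 called ribosomal protein genes, 32 are in the last class, as are 80 of the 81 tested. The classes thus separate these lists whether a member was called or not. Of the 1107, the summed level was 7402 to 11917 CPM in Input and 6470 to 7442 CPM in TRAP. Of the study astrocyte genes, 47 of 78 were called in the first class and 0 of 7 outside it, and 32 of the 47 had passed the filter through Input alone. For study endothelium the counts were 40 of 84 against 1 of 69. Meg3, Snhg11, Cxcl14 and Hspb8, which appear in other lists above, are also in the first class.

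A set of 10 transcripts known from liver or fat was picked after its values were seen because they were called lower, so their number supports nothing. They summed to 849, 217, 248 and 353 CPM in Input and 139, 145, 116 and 202 CPM in TRAP. Alb, the serum albumin of liver, was at 577, 88.2, 91.1 and 134 CPM in Input and 80.7, 86.5, 49.5 and 101 CPM in TRAP (log2 fold change -1.05, SE 0.24, edgeR adjusted p = 0.00122), with most of the difference in mouse 69, as for the other liver transcripts of the set, without which the log2 fold change was -0.42 and Alb was not called. Fabp4, the lipid carrier of fat cells, was at 44.6, 33, 45.8 and 62.8 CPM in Input and 13.4, 14.5, 17.4 and 26.8 CPM in TRAP (log2 fold change -1.38, SE 0.10, edgeR adjusted p = 8.34e-11), lower in all 4 mice. In the tissue libraries of the same comparison, Alb was at 2.09 to 11.7 CPM in Input. In microglia from the other sorters, Alb was at 13.1 to 131 CPM in autoMACS Input and 20.6 to 78.1 CPM in Tyto Input. Their TRAP held 7.96 to 24.8 CPM (autoMACS) and 6.45 to 23.9 CPM (Tyto). The values of these other libraries are scaled by library totals without TMM. The source of these reads was not tested.

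The 12 genes that were called higher in TRAP were few and mostly scarce, and 9 of them had a mean under 10 CPM in both fractions. Of the 12, 6 had passed the filter through TRAP alone, so that a higher value was built into their selection. The other 3 belong to loci in which many transcripts share exons. Ugt1a7c, a glucuronosyltransferase, was at 58.2, 61.8, 52 and 53 CPM in Input and 164, 171, 178 and 64.7 CPM in TRAP (log2 fold change 1.29, SE 0.13, edgeR adjusted p = 3.75e-08). The 7 other Ugt1a genes, which share their last exons with it, were called lower. Ugt1a9, as an example, was at 11.1, 12.2, 10.7 and 10.3 CPM in Input and 0, 0, 0 and 12.4 CPM in TRAP. In TRAP of mice 69, 945 and 991 Ugt1a9 was thus listed at 0 where Ugt1a7c was high, and in mouse 992 the level of both was near Input. Summed over the 8 genes, the locus was at 137, 147, 127 and 126 CPM in Input and 164, 172, 179 and 151 CPM in TRAP, so the split among the genes is uncertain and the locus differed by less than 2-fold. The gamma protocadherins, adhesion molecules that also share exons, gave the other pair: Pcdhgb2 was at 40.2, 31.9, 36.9 and 36.6 CPM in Input and 83.1, 89.4, 87.6 and 79.6 CPM in TRAP (log2 fold change 1.23, SE 0.08, edgeR adjusted p = 1.7e-11), and Pcdhgb4 had a log2 fold change of 1.16. Of the 22 genes of that locus, 2 were called higher and 9 lower, and the locus summed to 149, 147, 163 and 127 CPM in Input and 193, 206, 198 and 167 CPM in TRAP. Among the other genes with at least 50 CPM in TRAP, the largest log2 fold changes were those of the mitochondrial leucyl-tRNA synthetase gene Lars2 (0.92; 1.02 without mouse 69 and 1.21 without mouse 991, where it was called), the ubiquitin ligase gene Rnf40 (0.75), the Golgi glycoprotein gene Glg1 (0.72), Ccdc22 (0.70) and Sec16a (0.67), which organizes export sites of the endoplasmic reticulum. None of these 5 was called with all mice.

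The same comparison was set beside 3 other preparations in 1 model of 34 libraries, 17 pairs and 15101 genes: microglia sorted on a Tyto (5 mice), microglia bound to CD11b beads on an autoMACS (4 mice), and the unsorted cell suspension (Cell, 4 mice). Mice 69, 945 and 991 gave the opposite hemisphere to the Tyto, and the model treats those pairs as independent. The test asks whether TRAP over Input in FACSAria differed from TRAP over Input in the other preparation. Against Tyto it called 11 genes (0.0728%), all with a higher ratio in FACSAria, and against autoMACS also 11 (0.0728%), again all higher. Without the pair as a block neither comparison called a gene, with 560 and 1330 genes at an unadjusted p under 0.05 against 697 and 1758 with it. Against Cell the ratio was higher for 2030 genes (13.4%) and lower for 1899 (12.6%), and with DESeq2 size factors for 2455 and 1528.

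Haemoglobin genes were 4 of the 11 that differed from Tyto. Hba-a1 was at 11.9 to 55.7 CPM in FACSAria Input and 4.52 to 9.38 CPM in TRAP, and at 96.2 to 229.8 CPM in Tyto Input and 0.958 to 9.13 CPM in TRAP, a difference of 3.40 in log2 ratio (SE 0.48, edgeR adjusted p = 0.00782). The differences of Hba-a2, Hbb-b1 and Beta-s were 3.30, 3.63 and 3.33, and the other genes were Aplp1, Ptn, Adamts4, Prickle2, Tubb4a, Plcb1 and Zfp365. For Hba-a1 the levels in TRAP overlapped between the sorts and the levels in Input did not. Vim, an intermediate filament gene, was at 20.1 to 58.5 CPM in FACSAria Input and 19.7 to 37.5 CPM in TRAP, and at 55.6 to 87.4 CPM in autoMACS Input and 18.0 to 31.1 CPM in TRAP, a difference of 1.04 (SE 0.19, edgeR adjusted p = 0.049). The others were the integrin gene Itgal, the sialomucin gene Spn, Cd44 and Cxcr4, with Iqgap1, Emilin2, Plbd1, Cd97, Plekhg3 and Nedd9. Without mouse 991 the autoMACS comparison called 1 gene, without mouse 992 it called 5 and without mouse 69 it called 7.

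The list median of the ribosomal protein genes in this model was -0.93 in FACSAria, -1.03 in Tyto, -1.01 in autoMACS and -0.90 in Cell, and none of the 81 genes was called as different between FACSAria and another preparation, which does not show that they were alike. For Rplp0 the difference of FACSAria from Cell was -0.20, and it was -0.03 with DESeq2 size factors and -0.55 to -0.38 without 1 FACSAria mouse. The homeostatic microglial list separated the sorted cells from the suspension, at 0.15 in FACSAria, 0.30 in Tyto, 0.45 in autoMACS and 2.53 in Cell. For all 32 genes the ratio of TRAP over Input, not the level, was called lower in FACSAria than in Cell. P2ry12 as an example was at 345 to 482 CPM in Cell Input and 2207 to 2689 CPM in Cell TRAP. In FACSAria it was at 3244 to 3682 CPM in Input and 3075 to 3750 CPM in TRAP, a difference in log2 ratio of -2.49 (SE 0.18). The astrocyte list had a median on the Input side in every preparation, at -2.59 in FACSAria, -3.56 in Tyto, -2.67 in autoMACS and -2.66 in Cell. The median of the red cell list ranged from -1.84 in FACSAria to -6.38 in Cell. Neat1 was lower in TRAP by 3.38 on the log2 scale in FACSAria and by 2.26 in Cell, and the difference of -1.11 passed the threshold (edgeR adjusted p = 0.0773). It was -0.94 with DESeq2 or with its size factors and -0.97 where each library had to hold 10 counts or more, values under 2-fold.

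**Figure D5:**
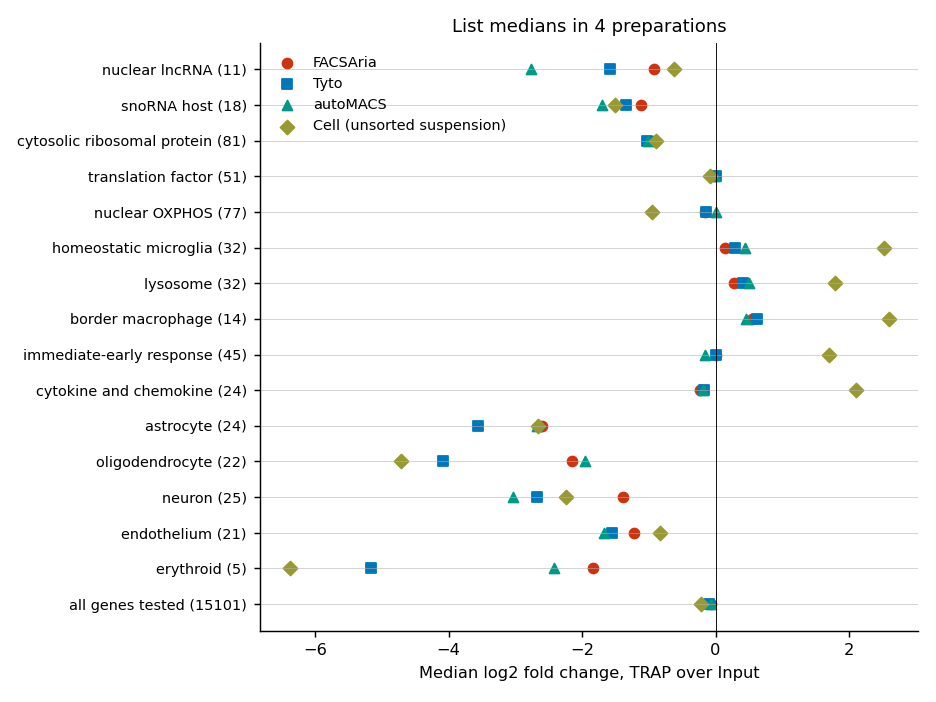
Median log2 fold change of TRAP over Input (x axis) of 16 gene lists (y axis, with the number of genes tested) in FACSAria, Tyto, autoMACS and Cell, from the model of 34 libraries. The 4 symbols lie between -1.03 and -0.90 for the ribosomal protein list, and Cell stands apart from the 3 sorts for the microglial and response lists.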

How the data were processed

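The libraries were poly(A), strand-aware RNA-Seq libraries of TRAP and Input RNA. The authors trimmed the reads, aligned them to the mouse genome build mm10 in Strand NGS, removed duplicates and deposited expected counts per gene, of which 37.9% of the FACSAria values are whole numbers within 1e-06. The submitters' processing notes also name DESeq2. The authors also deposited log2 values normalized with DESeq2 and set to a baseline per gene, which served here only for an alternative fit with limma. The deposited tables hold only genes that had over 5 reads throughout at least 1 group. A total of 23 symbols that had become dates were restored by gene identifier.

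Samples were grouped by their titles and labels. Expected counts were rounded, and a gene was kept if all 4 samples of Input or of TRAP had over 5 counts, which left out 4157. Counts were TMM-normalized and fitted in edgeR 4.0.16 (R 4.3.3) with fraction and mouse as terms, and the two-sided quasi-likelihood test was adjusted by Benjamini-Hochberg over all genes tested. A call needed an FDR under 0.1 and a fold change above 2, the thresholds of the study. The mouse was a block because both fractions came from 1 lysate. Deviations of the fractions of a mouse correlated at 0.27 (mouse 69), 0.28 (945), 0.44 (991) and 0.17 (992). The SE was derived from the fold change and the F statistic. Ratios per mouse used a pseudocount of 0.5 CPM. The tests were checked on simulated counts with 200 changed genes.

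Differences between preparations were tested as interactions in 1 fit of 34 libraries. Named genes were the 15 highest and 15 lowest called genes with at least 10 CPM, up to 4 members of each list, 5 at each end of a difference between preparations, and a set of reference genes. Ferritin, Macf1, Ccni, the liver and fat transcripts, Tyrobp, Sec61g, Lars2, Rnf40, Glg1, Ccdc22 and Sec16a lie outside that rule and were chosen after their values were seen. Some genes that the rule names are not reported here. The members and gene lists were chosen with earlier results of these data known. Gene lists were described by counts and medians, without a test. Alternatives were DESeq2 1.42.0, DESeq2 size factors, limma 3.58.1, other filters, no block, a fit of all 48 sort libraries and leaving out each mouse. RNA integrity of the TRAP fractions was not used here, and its part in the results was not tested. Counts cover reads, not independent molecules. The p-values and SEs of the paired model rest on a spread around the fit that is estimated in part across genes. They are not a direct measure of the spread between these 4 mice. For Fth1 the log2 ratios per mouse ran from -2.11 to -1.22, beside an SE of 0.08. With limma on the normalized log2 values of the same pairs, the adjusted p was 0.0054 for Neat1, 0.0080 for Rplp0 and 0.0096 for Malat1.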

Additional observations from a re-analysis of the deposited data

Results flagged for a closer look

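With 4 samples a group, 1 mouse far from the other 3 is picked out in about 1 in 20 groups by chance alone. In Input, mouse 991 was far above the other mice for Ttr (510 CPM), Enpp2 (240 CPM), Mbp (202 CPM), Sparcl1 (105 CPM), Cpe (43.2 CPM), Slc1a2 (41.4 CPM), Ntrk2 (29.7 CPM) and Hspb8 (3.36 CPM). In TRAP the same mouse was far above the others for Slco1a4 (7.03 CPM) and Enpp2 (6.9 CPM), and below them for Rangap1 (567 CPM). Mouse 992 was high for the chemokine genes Ccl3 and Ccl4 in Input (505 and 433 CPM) and in TRAP (448 and 381 CPM). It was also high for Tpt1 in TRAP (491 CPM) and low for Rpl35 (132 CPM) and Rpl39 (90.2 CPM) in Input. In the Ugt1a locus, mouse 992 was low for Ugt1a7c (64.7 CPM) and high for Ugt1a9 (12.4 CPM) in TRAP. Mouse 69 was high in Input for Alb (577 CPM) and Mrpl30 (17.5 CPM).

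The test of the difference between preparations called 11 genes against Tyto, 11 against autoMACS and 3929 against Cell. In log2 ratio, FACSAria exceeded Tyto for Zfp365 (4.37), Hbb-b1 (3.63), Hba-a1 (3.40), Plcb1 (3.37), Beta-s (3.33), Hba-a2 (3.30), Tubb4a (3.03), Prickle2 (2.97), Adamts4 (2.89), Ptn (2.5) and Aplp1 (1.86). It exceeded autoMACS for Spn (2.77), Itgal (2.27), Cd44 (2.18), Plbd1 (1.82), Cd97 (1.53), Nedd9 (1.48), Emilin2 (1.33), Plekhg3 (1.31), Cxcr4 (1.09), Iqgap1 (1.08) and Vim (1.04). Reads of the haemoglobin genes can be shared between near-identical copies, so their values are uncertain. So are those of Zfp365, Plcb1, Prickle2 and Adamts4, whose means in the FACSAria and Tyto fractions were at most 2.18 CPM. Zfp365 had a mean of 0.03 CPM in Tyto TRAP. Against Cell, the log2 ratio of FACSAria was higher for Hbb-b1 (4.65), Beta-s (4.60), Mag (4.16), Mbp (4.04), Hba-a1 (3.68) and Fth1 (1.05). It was lower for P2ry12 (-2.49), Cx3cr1 (-2.28), Mrc1 (-1.91), Cldn5 (-1.14) and Neat1 (-1.11), and for the Ugt1a genes Ugt1a5 (-6.03), Ugt1a9 (-6.02), Ugt1a10 (-6.02), Ugt1a2 (-5.97) and Ugt1a6a (-5.38), whose shared exons leave these values uncertain.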

How the results depend on the processing

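Of the calls, 96.9% to 99.0% were lower in TRAP under each alternative run, while their number, 777 with the chosen settings, varied. The total was 319 (315 lower and 4 higher) with at least 10 counts in every sample and 1765 (1747 lower) in the fit of all 48 libraries, and between 680 and 1040 with DESeq2, DESeq2 size factors, limma, no filter or no block. Without the mouse block, 7 genes were called higher and 663 of the 765 lower genes were still called. Without the block Xist (adjusted p = 0.41), Cxcl14 (0.10) and Ugt1a9 (0.22) were no longer called. Other calls lost were those of Alb (adjusted p = 0.17), Meg3 (0.24), Snap25 (0.12) and Snhg11 (0.14) with limma, Alb with DESeq2 (0.18), and Meg3 (0.23) and Snhg11 (0.16) in the fit of all 48 libraries. Eef1b2 missed the fold threshold with limma and with no filter, where Ifi27l2a and Mrpl30 missed it too. Leaving out 1 mouse gave 685 to 982 calls, 664 to 964 lower and 12 to 21 higher, the last without mouse 991. The all-gene median was -0.11 in the fit of all 48 libraries and -0.08 with no filter, against -0.01.

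Against Tyto, 52 genes were called by DESeq2, 3 with at least 10 counts in every sample, 0 without the pairing of the fractions (560 at an unadjusted p under 0.05), and 9 to 14 without 1 mouse. Against autoMACS, 51 were called by DESeq2 (46 higher), 0 without the pairing (1330 at an unadjusted p under 0.05), and 1 to 13 without 1 mouse. Against Cell, 4111 to 4269 were called without 1 mouse, 1378 to 1583 of them higher and 2652 to 2733 lower, and the median difference over all genes was then between -0.27 and -0.24, against 0.02 with all mice and 0.19 with DESeq2 size factors.

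Genes that were not called changed sign near 0: Ddit3 lay between -0.17 and 0.038 without 1 mouse (above 0 without mouse 69 or 991), Il1b was at 0.0078 with no filter, and P2ry12 was at 0.011 with no filter and between -0.048 and 0.012 without 1 mouse (above 0 without mouse 992). The median of the study oligodendrocyte list turned to 0.037 with at least 10 counts in every sample. Of the 954 values of named genes under the alternatives, 918 kept direction and call. The TRAP and Input libraries differ in depth, which limits the scarce genes.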
